A study of Mus musculus with 48 samples.

Results

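Messenger RNA levels of the 8 enzymes of hepatic triacylglycerol synthesis by the glycerol phosphate pathway were measured in the livers of mice with altered LXRα. The genes were taken as a named list by their function, Gpam, Agpat2, Agpat3, Lpin1, Lpin2, Lpin3, Dgat1 and Dgat2, and were found through the Ensembl identifier of each symbol among the 55416 genes counted in every liver. All 8 passed the filter on low counts and were among the 15711 genes tested.

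The series holds 48 livers from 2 studies of male C57Bl/6J mice, with 8 wild-type (WT), 8 heterozygous (HET) and 8 homozygous (HOM) animals in each. In the first study, called DN here, the mice carried W441R, a dominant negative change in LXRα that was introduced into the endogenous gene with CRISPR-Cas9. In the second, called KO, they carried the LXRα knockout allele, which came from a mixed Sv129/C57Bl/6 background and had been backcrossed to C57Bl/6. Every animal, wild type included, ate a western diet with 0.2% cholesterol for 8 weeks, from 8 to 16 weeks of age. Both alleles were carried in the germline and so in the whole body, and the studies were housed at different sites, so that allele, colony and site cannot be told apart between studies. LXRα itself is encoded by Nr1h3, whose level in CPM (read counts relative to the library total, scaled between libraries by TMM) ran from 81.4 to 108 in KO wild-type, from 48.3 to 65.4 in KO heterozygous and from 25.2 to 31.1 in KO homozygous livers, with no overlap between the 3 genotypes. In DN livers, where W441R changes the protein and the level is no check of the label, Nr1h3 ran from 82.0 to 96.8 in wild-type, from 86.2 to 99.8 in heterozygous and from 68.3 to 77.3 in homozygous livers.

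Reads assigned to genes ranged from 5332897 to 16961379 a liver with a median of 15879971.5, and 2 livers, both of the KO study, had fewer than 10000000. The libraries labelled DN:WT animal 10 and DN:HOM animal 12 stood apart from their groups: over genes other than the 8, the first correlated at r = 0.913 with the mean of the other DN wild-type livers and at r = 0.991 with the mean of the homozygous livers, and the second at r = 0.991 and r = 0.918 in the same order. These correlations run across genes, which are not independent replicates. The remaining 7 DN wild-type and 7 DN homozygous livers were closer to the mean of their own label. Group values that the study plots for some genes are recovered when both livers are left out, which was checked for 5 genes, whereas a heatmap of the study is captioned with every liver. The results below rest on 46 livers, and values with all 48 livers as labelled stand beside the main results that these libraries touch. Reads that named no gene made up 26.2% to 34.3% of each DN wild-type and 24.6% to 26.7% of each DN homozygous library used, and the part of this share in the differences between them was not tested. No liver was moved to another group. Hepatocyte markers were high in every liver, with summed levels of 6 genes from 29033 to 86534 CPM in the 46 livers.

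Triacylglycerol is built on glycerol 3-phosphate. A glycerol phosphate acyltransferase adds a first fatty acyl chain, an acylglycerol phosphate acyltransferase adds the next and gives phosphatidic acid, a lipin removes the phosphate to give diacylglycerol, and a diacylglycerol acyltransferase adds the last chain. LXRα, a nuclear receptor for oxysterols, is known to raise fatty acid synthesis in hepatocytes in large part through SREBP-1c, the product of Srebf1, and the chains made in this way are substrates of the pathway.

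To show the sequence from which enzymes with large differences are transcribed, windows from 250 bases before to 50 bases after the RefSeq start site (300 bases, assembly GRCm38.p6) are printed for Gpam, Agpat2 and Lpin1, 5′ to 3′ on the strand of the gene. Capitals mark a CCAAT box, written ATTGG where it lies on the other strand. Of the 8 genes, 6 matched an entry, with 10 windows between them. Dgat1 and Dgat2 had no entry, so Dgat2, which changed more than Lpin1 in DN homozygous livers, is not printed. Lpin1 had the largest change of the 8 in KO homozygous against wild-type livers.
Gpam, chr19:55127189-55127488, minus strand: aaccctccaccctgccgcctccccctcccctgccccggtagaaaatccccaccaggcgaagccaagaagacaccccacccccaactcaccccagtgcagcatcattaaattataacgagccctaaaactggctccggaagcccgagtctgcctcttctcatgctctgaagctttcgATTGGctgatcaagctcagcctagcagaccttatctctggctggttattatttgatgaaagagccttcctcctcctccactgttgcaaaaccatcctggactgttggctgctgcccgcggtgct
Gpam, chr19:55099428-55099727, minus strand: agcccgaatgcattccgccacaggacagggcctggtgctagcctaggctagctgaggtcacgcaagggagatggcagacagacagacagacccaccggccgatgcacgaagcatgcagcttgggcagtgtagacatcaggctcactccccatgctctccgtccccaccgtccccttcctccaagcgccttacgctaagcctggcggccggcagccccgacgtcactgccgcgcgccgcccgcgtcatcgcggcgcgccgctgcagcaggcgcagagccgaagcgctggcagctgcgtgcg
Agpat2, chr2:26604368-26604667, minus strand: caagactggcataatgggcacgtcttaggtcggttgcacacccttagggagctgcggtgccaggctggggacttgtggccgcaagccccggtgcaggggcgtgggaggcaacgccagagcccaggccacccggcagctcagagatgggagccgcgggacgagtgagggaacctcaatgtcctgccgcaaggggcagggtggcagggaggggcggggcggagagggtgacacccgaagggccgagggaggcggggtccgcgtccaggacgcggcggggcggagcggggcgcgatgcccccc
Lpin1, chr12:16610917-16611216, minus strand: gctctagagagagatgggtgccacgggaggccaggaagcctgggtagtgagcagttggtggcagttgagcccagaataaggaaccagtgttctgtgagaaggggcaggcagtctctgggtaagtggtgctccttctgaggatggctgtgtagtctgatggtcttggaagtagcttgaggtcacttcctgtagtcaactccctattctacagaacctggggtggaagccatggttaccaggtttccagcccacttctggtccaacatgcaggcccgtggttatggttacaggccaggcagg
The windows were searched for 6 motifs on both strands. The direct repeat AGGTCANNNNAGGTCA, the element bound by LXR, was found in none of the 10 windows and in 0.015% of 32851 promoter windows of the genome. A sterol regulatory element, TCACNCCAC, was in none of the 10 and in 1.24% of all windows; AGGTCANAGGTCA, bound by PPAR, was in none and in 0.04% of all; and TATAAA was in none and in 13.6% of all. CCAAT was in the first Gpam window, starting 74 bases before the start site, and 3 times in 1 of the Lpin2 windows, against 37.4% of all windows. The E-box CACGTG was in 1 Lpin2 window, 9 bases before the start site, and in 1 Lpin3 window, against 7.15% of all windows. An absent match says only that these letters are not in these 300 bases.

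To set genes side by side, levels were taken per kilobase of exon. Length here is the union of annotated exons, which need not be that of the transcript present in liver. In DN wild-type livers these levels were led by Agpat2 with 78.0 ± 9.76 CPM per kb (SD, n = 7) and Dgat2 with 77.6 ± 11.9. Gpam followed with 49.9 ± 19.7, Lpin2 with 27.2 ± 3.03 and Agpat3 with 19.3 ± 1.11. Dgat1 with 4.97 ± 0.421, Lpin1 with 4.53 ± 1.35 and Lpin3 with 1.77 ± 0.325 CPM per kb were the low members. In KO wild-type livers Dgat2 led with 114 ± 4.77 CPM per kb (SD, n = 8) and Lpin1, at 38.5 ± 31.8, stood among the middle members. Raw counts behind these levels ran from a median of 107 reads a liver for Lpin3 and 362.5 for Dgat1 to 7787 for Dgat2.

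At each of the 4 steps of the pathway, 1 gene or more was lower in livers homozygous for W441R. The third step rests on Lpin2, whose call was lost under 2 other settings given with that gene. Against DN wild-type livers, 5 of the 8 genes passed the test at an adjusted p under 0.05 (edgeR's quasi-likelihood test, Benjamini-Hochberg over all genes), Gpam, Agpat2, Agpat3, Lpin2 and Dgat2, all of them lower. In the same comparison 59.0% of all genes tested passed and 29.9% passed as lower. For those 5 genes no homozygous liver reached the lowest wild-type liver, a separation seen in the lower direction for 15.8% of all genes. The median log2 fold change of the 8 genes was -0.91, beside -0.01 over all genes. With all 48 livers as labelled the same 5 genes passed, with smaller changes, and the groups of each of the 8 genes overlapped.

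**Figure D1:**
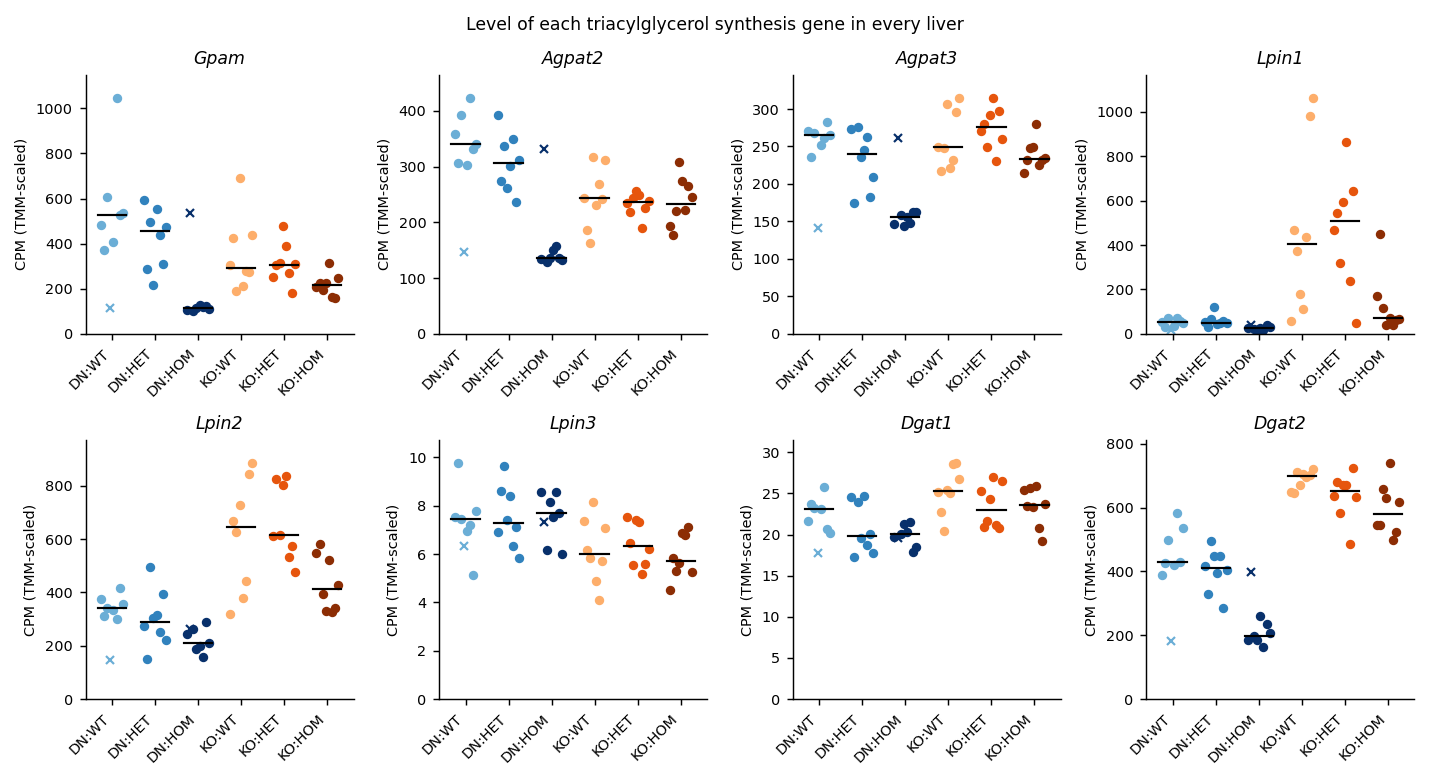
Level of each gene in CPM (vertical axis, linear from 0) in every liver of the 6 groups; dots are the 46 livers used, crosses are DN:WT animal 10 and DN:HOM animal 12, and bars are medians of the dots. Dots of DN:HOM lie under every dot of DN:WT for Gpam, Agpat2, Agpat3, Lpin2 and Dgat2, and Lpin1 runs from 56.3 to 1062 CPM in KO:WT.

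Gpam encodes the mitochondrial glycerol phosphate acyltransferase that starts the pathway; it lies at chr19:55055700-55115784 on the minus strand (GRCm39, ENSMUSG00000024978). Its level was lowest 373, median 525 and highest 1045.5 CPM in DN wild-type livers, 218, 456 and 592 in DN heterozygous livers, and 99.9, 115 and 127 in DN homozygous livers. The 7 homozygous livers used were low and close together, and none overlapped with either other genotype. Their coefficient of variation was 8.30% beside 39.5% in wild-type livers, or 89.8% beside 51.5% with all 48 livers as labelled. The wild-type spread rests in part on animal 17, with 1045.5 CPM beside 373 to 605 CPM in the others used. The fitted level was 4.93-fold lower in homozygous than in wild-type livers (log2 fold change -2.30, SE 0.24, adjusted p = 1.0e-10), the largest decrease among the 8 genes, and -1.62 with all 48 livers (adjusted p = 1.5e-04). DN:WT animal 10 had 112.5 CPM and DN:HOM animal 12 had 537 CPM. Heterozygous livers were 1.35-fold lower than wild-type livers (log2 -0.44, 95% confidence interval -0.89 to 0.02), which did not pass the test (adjusted p = 0.41).

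In KO livers Gpam had lowest, median and highest levels of 189, 291 and 690 CPM in wild-type, 183, 308 and 477 in heterozygous and 157, 215 and 313 in homozygous animals. The groups overlapped, with most homozygous livers in the lower part of the wild-type range. Homozygous livers were 1.63-fold lower than wild-type livers (log2 -0.70, SE 0.22, adjusted p = 0.018), a call that was lost with all 48 livers in the fit (log2 -0.70, adjusted p = 0.145) and with the compared groups fitted alone (adjusted p = 0.053). The decrease with W441R exceeded that with the knockout by 1.60 on the log2 scale (95% confidence interval of the difference, DN minus KO, -2.25 to -0.96; adjusted p = 1.2e-04), or by 0.92 with 48 livers (adjusted p = 0.17).

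Agpat2 encodes the acylglycerol phosphate acyltransferase whose loss causes congenital lipodystrophy; it lies at chr2:26483061-26494637 on the minus strand (ENSMUSG00000026922). DN wild-type livers had 303 CPM at the lowest, 340 at the median and 423 at the highest, DN heterozygous livers 236, 306 and 392, and DN homozygous livers 129, 135 and 158. The homozygous group was narrow and lay under every heterozygous and wild-type liver. It was 2.5-fold lower than wild type (log2 -1.32, SE 0.12, adjusted p = 6.8e-13), and the change was -0.995 with 48 livers (adjusted p = 3.3e-05). In KO livers the corresponding values were 163, 243 and 317 CPM in wild-type and 177, 233 and 308 CPM in homozygous animals, ranges that lay over each other. The KO change was -0.05 (95% confidence interval -0.27 to 0.17, adjusted p = 0.79), and the difference between the 2 homozygous effects was -1.27 (SE 0.16, adjusted p = 3.2e-08; -0.95 and adjusted p = 0.010 with 48 livers). Exons of Egfl7 on the opposite strand overlap 24.2% of the exonic bases of Agpat2, and the counts used are of the sense strand.

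Agpat3 encodes another acyltransferase of the same family; it lies at chr10:78105003-78208987 on the minus strand (ENSMUSG00000001211). Levels were 236 to 283 CPM (median 266) in DN wild-type, 174 to 276 (median 240) in DN heterozygous and 145 to 163 (median 156) in DN homozygous livers. Wild-type and homozygous livers were separated by a wide gap, and the heterozygous livers ran from the wild-type range to below it without reaching the homozygous group. The homozygous level was 1.69-fold lower than wild type (log2 -0.75, SE 0.09, adjusted p = 8.7e-10; -0.56 with 48 livers, adjusted p = 2.0e-04). KO livers ran from 217 to 314 CPM in wild-type and from 215 to 279 CPM in homozygous animals, with a change of -0.13 (95% confidence interval -0.30 to 0.04, adjusted p = 0.29). Set against the KO change, that in DN livers differed by -0.62 (SE 0.12, adjusted p = 6.9e-05; -0.44 and adjusted p = 0.071 with 48 livers).

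The lipins are phosphatidic acid phosphatases, and Lpin1 is also known as a transcriptional coactivator induced by fasting and glucocorticoids. Lpin1 lies at chr12:16584818-16703913 on the minus strand (ENSMUSG00000020593). In DN livers it was low in every genotype, with 32.5, 51.3 and 73.4 CPM (lowest, median, highest) in wild-type, 31.2, 50.8 and 119 in heterozygous and 16.5, 24.2 and 39.6 in homozygous animals. The homozygous livers lay low but overlapped the wild-type range. Their change of -1.07 (SE 0.52, 95% confidence interval -2.13 to -0.01) did not pass the test (adjusted p = 0.076). This value takes its spread from all 6 groups, of which the KO groups vary most: when each study was fitted alone the change was -1.03 with an adjusted p of 0.0014, and with the 2 compared groups alone it was -1.06 with an adjusted p of 7.7e-04.

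Among KO livers Lpin1 ran from levels within the DN range to far above it: 56.3, 405 and 1062 CPM in wild-type, 49.8, 506 and 866 in heterozygous and 38.4, 70.4 and 451 in homozygous animals. The highest wild-type liver had 18.9 times the level of the lowest. All but 1 homozygous liver lay at 171 CPM or less, while the groups overlapped. The homozygous level was 3.59-fold lower than wild type (log2 -1.85, SE 0.49, adjusted p = 0.0059) and changed by -1.86 against heterozygous livers (adjusted p = 0.012). Without KO:HOM animal 11, the liver with 451 CPM, these changes were -2.5 (adjusted p = 3.0e-04) and -2.52 (adjusted p = 0.0014). With each study fitted alone the first of these had an adjusted p of 0.050 and with the compared groups alone 0.075, and the second 0.071 and 0.068. The effects of the 2 alleles on Lpin1 differed by 0.77 (95% confidence interval -0.65 to 2.20, adjusted p = 0.42), or by 1.43 without that liver (adjusted p = 0.083), a difference that was not detectable at this spread.

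Lpin2, the most abundant lipin in DN livers, lies at chr17:71489555-71556909 on the plus strand (ENSMUSG00000024052). Its levels were 301, 343 and 415 CPM in DN wild-type, 150, 289 and 493 in DN heterozygous and 157, 212 and 288 in DN homozygous livers. Homozygous livers lay under every wild-type liver, and the heterozygous livers spanned both groups. The homozygous level was 1.56-fold lower (log2 -0.64, SE 0.20, adjusted p = 0.0061; -0.51 and adjusted p = 0.034 with 48 livers). It did not pass with library size scaling alone (-0.21, adjusted p = 0.34) or with all 48 livers and each study fitted alone (-0.47, adjusted p = 0.055). In KO animals the levels were 319, 647 and 883 CPM in wild-type, 478, 614 and 838 in heterozygous and 326, 412 and 580.05 in homozygous livers, again with overlap. The KO homozygous change was -0.50 against wild type (SE 0.19, adjusted p = 0.056) and -0.60 against heterozygous livers (adjusted p = 0.032). The latter call was lost under 7 of 15 alternatives, with an adjusted p of 0.069 with all 48 livers or library size alone, 0.068 with no low-count filter, 0.055 with each study fitted alone and 0.11 without the livers of low depth. The difference between the effects of the 2 alleles was -0.14 (95% confidence interval -0.69 to 0.42, adjusted p = 0.74).

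Lpin3, the lowest of the 3 lipins in CPM, lies at chr2:160722461-160747929 on the plus strand (ENSMUSG00000027412). It ran from 5.14 to 9.75 CPM in DN wild-type, from 6.00 to 8.57 in DN homozygous, from 4.09 to 8.14 in KO wild-type and from 4.53 to 7.13 in KO homozygous livers. The genotypes lay over each other in both studies. The changes were 0.04 (95% confidence interval -0.23 to 0.30) with W441R and -0.06 (-0.32 to 0.19) with the knockout.

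The last step is shared by 2 enzymes of unrelated sequence families, DGAT1 and DGAT2, of which DGAT2 is known to esterify newly made fatty acids. Dgat2 lies at chr7:98802491-98831991 on the minus strand (ENSMUSG00000030747). DN wild-type livers had 388, 429 and 583 CPM (lowest, median, highest), DN heterozygous livers 284, 411 and 495, and DN homozygous livers 164, 196 and 260. The homozygous livers lay under every liver of the other genotypes. Their level was 2.27-fold lower than wild type (log2 -1.18, SE 0.11, adjusted p = 5.5e-13; -0.92 and adjusted p = 2.7e-05 with 48 livers). KO wild-type livers were close together, between 646 and 722 CPM, and KO homozygous livers ran from 498 to 738 CPM around a median of 581. This change of -0.22 (95% confidence interval -0.41 to -0.02) did not pass the test (adjusted p = 0.11), and the difference between the alleles was -0.96 (SE 0.14, adjusted p = 7.9e-07; -0.71 and adjusted p = 0.026 with 48 livers).

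Dgat1 lies at chr15:76385083-76396476 on the minus strand (ENSMUSG00000022555). Its levels were 20.2 to 25.7 CPM (median 23.1) in DN wild-type, 17.3 to 24.7 (median 19.8) in DN heterozygous, 17.8 to 21.5 (median 20.01) in DN homozygous, 20.4 to 28.6 (median 25.3) in KO wild-type and 19.2 to 25.9 (median 23.6) in KO homozygous livers. All of these ranges overlapped. The changes in homozygous livers were -0.17 (95% confidence interval -0.34 to -0.0048, adjusted p = 0.071) with W441R and -0.12 (-0.28 to 0.03, adjusted p = 0.29) with the knockout. Exons of Hsf1 on the opposite strand overlap 54.6% of the exonic bases of Dgat1, and a median of 34 reads a liver was counted on the strand opposite to Dgat1 beside 362.5 on its own.

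**Figure D2:**
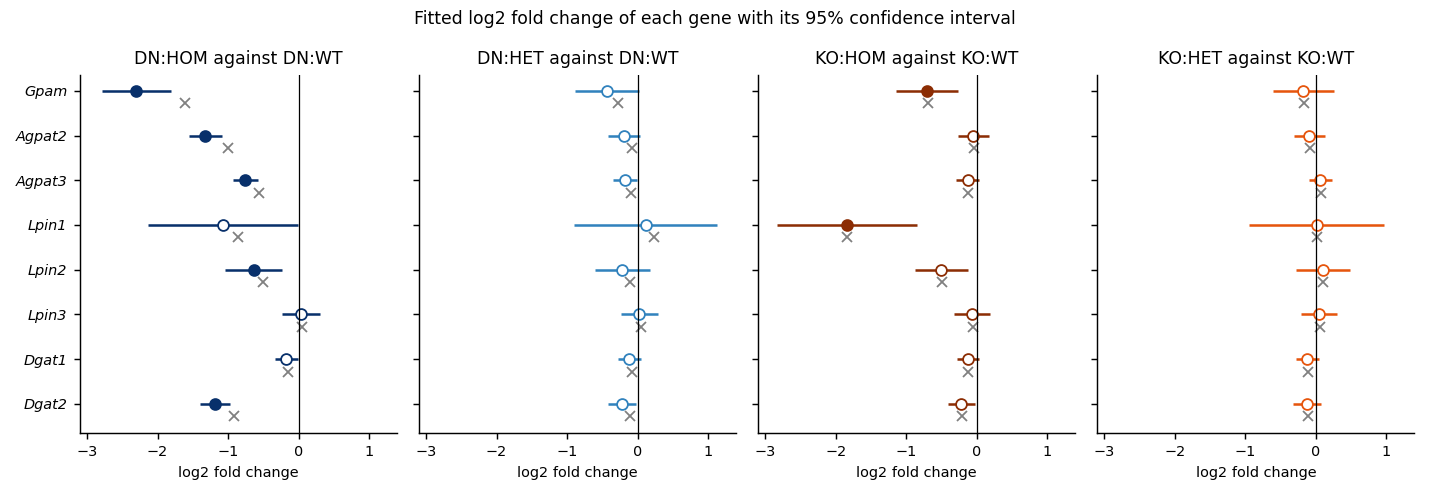
Log2 fold change (horizontal axis) of each gene in homozygous and heterozygous against wild-type livers of the same study; circles are values from 46 livers with bars for the 95% confidence interval, filled where the adjusted p is under 0.05, and grey crosses are values with all 48 livers. Filled circles stand at Gpam, Agpat2, Agpat3, Lpin2 and Dgat2 for DN:HOM and at Gpam and Lpin1 for KO:HOM, and none stands in the heterozygous panels.

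Counted over the list, none of the 8 genes passed in DN heterozygous against wild-type livers, where 2.05% of all genes did. That share depends on the fit: 322 genes passed here and 546 without DN:HET animal 14. With all 48 livers 36 passed, with each study fitted alone 62, and with the compared groups alone 4. Among the 8 genes the lowest adjusted p was 0.31, for Dgat2. In edgeR's test 2 genes (Agpat3 and Dgat2) had an unadjusted p under 0.05, and DESeq2 called 0. In KO heterozygous against wild-type livers edgeR's test called 0 of the 8, with 0 at an unadjusted p under 0.05 and 0 called by DESeq2, where 0.0191% of all genes passed. Between DN homozygous and heterozygous livers 5 passed, all lower, Gpam (-1.87), Agpat2 (-1.13), Agpat3 (-0.57), Dgat2 (-0.96) and Lpin1 (-1.18, adjusted p = 0.049), against 53.7% of all genes called and 27.8% called lower. In 4 of them, Gpam, Agpat2, Agpat3 and Dgat2, the groups did not overlap, as for 10.5% of all genes in that direction. With all 48 livers as labelled these 4 passed, and the groups of each of the 8 genes overlapped. The Lpin1 call was lost under 9 of 15 alternatives, among them without DN:HET animal 14, the liver with 119 CPM (-0.95, adjusted p = 0.12), with all 48 livers (-1.10, adjusted p = 0.058), with no low-count filter (adjusted p = 0.088) and with upper-quartile scaling (0.063) or library size alone (0.15). In KO homozygous against wild-type livers 2 genes passed, both lower, Gpam and Lpin1, where 19.3% of all genes passed and 7.82% as lower; none of the 8 had groups without overlap, which 0.369% of all genes had in the lower direction. In KO homozygous against heterozygous livers 2 passed, Lpin1 and Lpin2, both lower, against 10.5% of all genes called and 3.31% called lower; without the 2 livers of low depth Lpin2 changed by -0.53 (adjusted p = 0.11). Between the effects of the 2 alleles, 4 genes differed, Gpam, Agpat2, Agpat3 and Dgat2, each with the larger decrease in DN livers, where 34.5% of all genes differed and 18.2% in that direction. With 48 livers 2 of these calls, Agpat2 and Dgat2, held.

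The fold changes of the low-changing members depend on how libraries are scaled. Scaling by library size alone moved the median log2 fold change of all genes between DN homozygous and wild-type livers from -0.01 to 0.42. On that scale Dgat1 passed as higher by 0.26 (adjusted p = 0.0033) and Lpin3 by 0.47 (adjusted p = 0.0024), which relative to that median are -0.16 and 0.05. Lpin2 changed by -0.21, or by -0.63 relative to the median, and did not pass (adjusted p = 0.34). Gpam, Agpat2, Agpat3 and Dgat2 passed as lower with TMM, upper-quartile and library size scaling.

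Ratios within a liver do not depend on scaling. Per kilobase, Dgat2 exceeded Dgat1 by 3.96 ± 0.21 on the log2 scale in DN wild-type livers (SD, n = 7), a 15.5-fold excess, and by 2.95 ± 0.29 in DN homozygous livers (n = 7), a 7.70-fold excess. The lowest wild-type value was 3.75 and the highest homozygous value 3.31. The difference of -1.01 had an exact permutation p of 0.000583, two-sided and the smallest that 3432 splits allow, with an adjusted p of 0.0035 over 12 tests (-0.76 and 0.032 with 48 livers). In KO livers the ratio was 4.36 ± 0.17 in wild-type and 4.25 ± 0.14 in homozygous animals (n = 8 each), a difference of -0.11 with an exact adjusted p of 0.44.

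Gpam made up 69.7% ± 6.23 of the reads per kilobase of the 4 glycerol phosphate acyltransferase genes (Gpam, Gpat2, Gpat3 and Gpat4) in DN wild-type livers and 44.5% ± 2.48 in DN homozygous livers (SD, n = 7 each). No homozygous liver exceeded 48.4% and no wild-type liver was under 60.6% (exact permutation test, adjusted p = 0.0035; 0.032 with 48 livers). In KO livers the share was 47.3% ± 12.2 in wild-type and 47.4% ± 4.84 in homozygous animals (SD, n = 8 each), a difference of 0.079 percentage points. Gpam (log2 -0.70) and Gpat4 were both lower in these KO homozygous livers, so that the even share does not mean an unchanged level of Gpam. Lpin1 made up 13.5% ± 3.83 of lipin reads per kilobase in DN wild-type and 9.99% ± 1.79 in DN homozygous livers (exact adjusted p = 0.13, n = 7 each), and 37.7% ± 16.2 in KO wild-type and 19.7% ± 11.5 in KO homozygous livers (exact p = 0.025, adjusted p = 0.10, n = 8 each). The Lpin1 shares of both studies thus overlapped between genotypes and did not pass the correction. No ratio passed between heterozygous and wild-type livers, with exact adjusted p from 0.50 to 0.99.

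**Figure D3:**
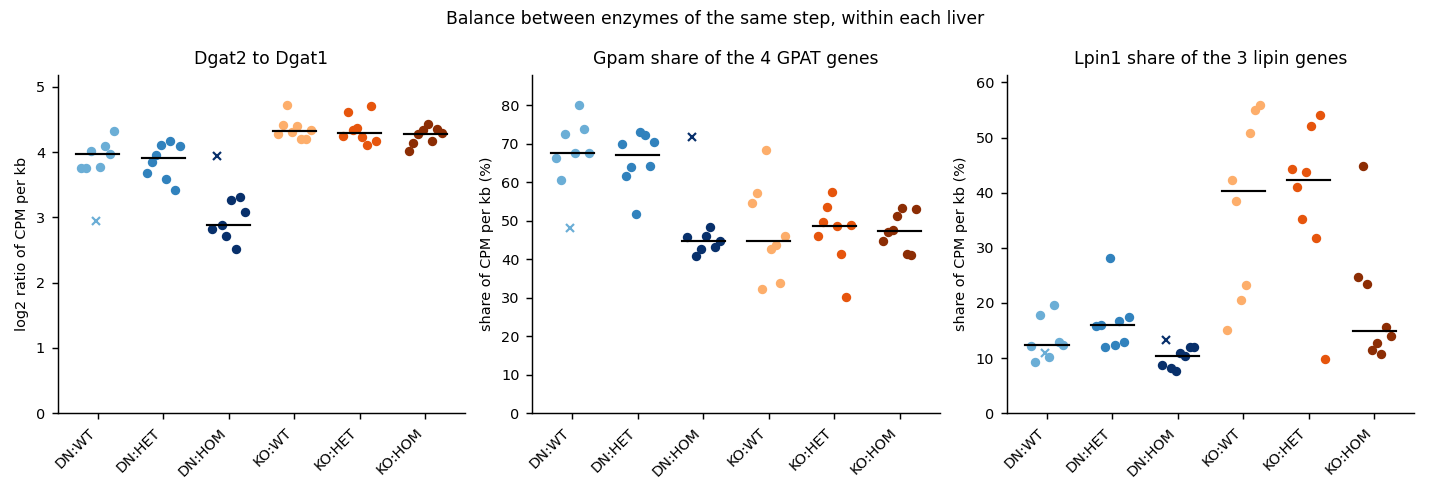
Balance between enzymes of the same step in every liver, as the log2 ratio of Dgat2 to Dgat1, the percent of Gpam among the 4 GPAT genes and the percent of Lpin1 among the 3 lipin genes, each per kilobase of exon; symbols are as in the plot of levels. DN:HOM dots lie under every DN:WT dot in the first 2 panels, and KO genotypes overlap in all 3.

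Wild-type livers of the 2 studies, on the same diet, also differed in these genes. KO wild-type livers had more Lpin1 (log2 3.10, SE 0.55, 8.57-fold, adjusted p = 1.3e-04), more Lpin2 (0.82, adjusted p = 0.0038) and more Dgat2 (0.56, adjusted p = 1.3e-04), and less Agpat2 (-0.51, adjusted p = 0.0017) and Gpam (-0.68, adjusted p = 0.038). Thus 5 of 8 passed, 3 higher and 2 lower, where 11.9% of all genes passed, 6.43% as higher and 5.47% as lower. Dgat2 was the member whose groups did not overlap, with every KO wild-type liver above every DN wild-type liver, as for 0.980% of all genes. With 48 livers 3 passed, Lpin1, Lpin2 and Dgat2, and without DN:WT animal 17, which had the highest Gpam, the Gpam difference was -0.48 (adjusted p = 0.17). The Gpam call was also lost with no low-count filter (adjusted p = 0.082) and with the compared groups alone (0.14). Of 16 listed genes of fasting, glucocorticoid response and clock, 10 were higher and 2 lower in the same comparison, or 9 and 2 with 48 livers: Fkbp5, a glucocorticoid target, by 2.73 (adjusted p = 2.6e-04), Pck1, the gluconeogenic enzyme, by 1.89 (3.2e-06), Angptl4 by 1.38 (3.9e-04), Per1 by 1.99 (2.8e-04) and the clock gene Bmal1 by -2.23 (0.0010). Their part in the Lpin1 difference was not tested, and study, site and colony cannot be told apart.

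Within groups, Lpin1 moved with several of those genes from liver to liver. After subtraction of group means and with permutation within groups, log2 CPM of Lpin1 and Fkbp5 correlated at Pearson r = 0.83 and Spearman rho = 0.78 over 46 livers (each permutation p = 1e-05, the smallest that 100000 permutations give, adjusted p over 16 genes 8.0e-05), at r = 0.79 without the 2 livers farthest from the median, at r = 0.57 within DN and 0.86 within KO. Lpin1 and Angptl4 gave r = 0.72 and rho = 0.71 (0.65 without 2 livers, 0.68 within DN and 0.84 within KO). Lpin1 and Pck1 gave r = 0.58 and rho = 0.58, and Lpin1 and Tat, another glucocorticoid target, r = 0.60 and rho = 0.57. Ppargc1a (r = 0.50) and Per1 (r = 0.31) also passed, with 6 of the 16 listed genes in all. The other 10 did not, among them the fasting genes Ppara (r = 0.18), Pdk4 (r = 0.23) and Fgf21 (r = 0.24), G6pc1 (r = 0.10) and the clock genes Bmal1 (r = 0.10, adjusted p = 0.63), Dbp (r = -0.08) and Nr1d1 (r = -0.07). This count is a description, and stands without the share of all genes that pass with Lpin1. Genes outside the list reached similar values, with rho = 0.82 for St3gal5 and 0.80 for Il6ra.

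The same calculation was made between the 8 genes, as a description, since the share of pairs of other genes that pass was not computed. Of 28 pairs, 9 passed at an adjusted permutation p under 0.05 on Pearson's r and 11 on Spearman's rho, each with a positive coefficient. The highest was Lpin1 with Lpin2 (r = 0.68, rho = 0.66, adjusted p = 0.00014 and 0.00028, 0.63 without the 2 farthest livers, 0.52 within DN and 0.80 within KO). Agpat3 with Dgat2 gave r = 0.61 and rho = 0.60 (0.52 without 2 livers, 0.63 within DN and 0.61 within KO), and Gpam with Agpat2 gave r = 0.60 and rho = 0.60 (0.52 without 2 livers, 0.81 within DN and 0.48 within KO). Agpat2 with Agpat3 gave r = 0.59 and rho = 0.51 (0.64, 0.61 and 0.59 in the same order). Lpin1 did not pass with Gpam (r = 0.09, adjusted p = 0.68) or with Agpat2 (r = -0.14, adjusted p = 0.60), and Lpin3 passed with none.

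**Figure D4:**
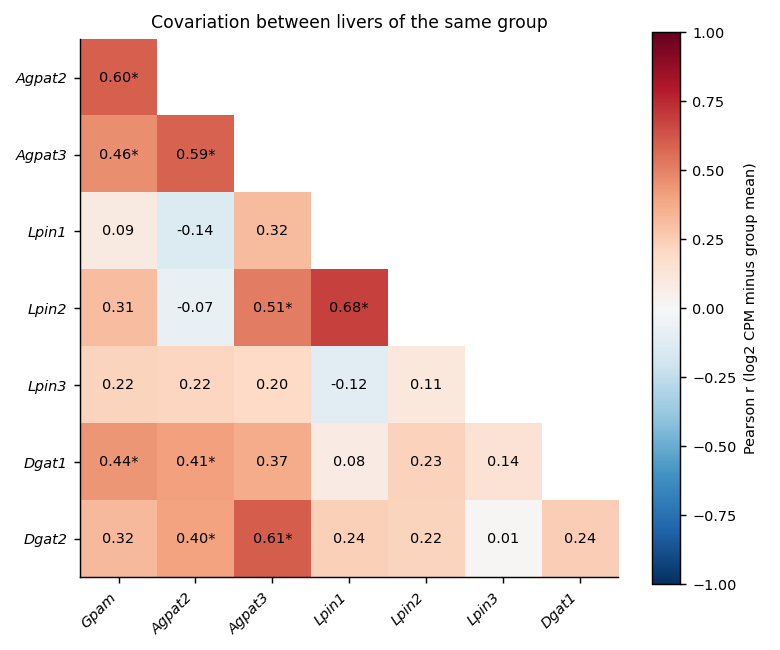
Pearson r between each pair of genes over 46 livers after subtraction of group means (colour and number); stars mark an adjusted p under 0.05 over 28 pairs. The highest value is 0.68 for Lpin1 and Lpin2, and the row and column of Lpin3 hold no star.

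The genes most like each member across livers, by Spearman rho of log2 CPM minus the group mean over 46 livers and 11712 genes, are given as a description. For Gpam they included Sc5d (0.90) and Acss2 (0.86), genes of sterol synthesis and acetate activation. For Agpat2 they were Slc25a10 (0.80), Them7 (0.78) and Msra (0.77), and for Agpat3 Pdha1 (0.88), Pcx (0.88) and Tlcd4 (0.86). Lpin1 was most like St3gal5 (0.82), Il6ra (0.80) and Fbxo31 (0.79), and Lpin2 most like Dnmbp (0.77), Susd6 (0.74) and Mknk2 (0.73). For Dgat2 they were Atp5f1a (0.86), Car5a (0.82) and Sucla2 (0.82), for Dgat1 Copz2 (0.68), Adcy6 (0.65) and Tmem134 (0.65), and for Lpin3 Pnldc1 (0.65), Haus7 (0.58) and Kptn (0.57). These values pool both studies. Several were lower within DN than within KO, among them Them7 (0.58 and 0.92), Dnmbp (0.49 and 0.91), Il6ra (0.44 and 0.86) and Kptn (0.24 and 0.75). Others were alike in both, such as Sc5d (0.88 and 0.90), or higher within DN, such as Tmem134 (0.68 and 0.49).

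The rest of the pathway was followed in 25 further genes. In DN homozygous against wild-type livers 10 were lower, 4 higher and 11 did not pass, with a median log2 fold change of -0.13, where 59.0% of all genes passed. In KO homozygous livers 3 were lower, Mogat2 was higher and 21 did not pass, where 19.3% of all genes passed. Among the other acyltransferases, Gpat4, the microsomal enzyme of the first step in liver, fell with both alleles (log2 fold change -1.08 in DN, adjusted p = 7.8e-10, and -0.86 in KO livers, adjusted p = 2.1e-06), from medians of 182 to 78.8 CPM and of 284 to 160.01 CPM, while Gpat2 fell in DN livers (-0.76). Agpat4 rose by 1.66 and Agpat1 by 0.33 in DN livers, the former from a median of 1.01 to 2.60 CPM. Of the 5 genes that supply glycerol 3-phosphate, 4 fell in DN livers: Gpd1, which reduces dihydroxyacetone phosphate (-1.30), Gpd2 (-0.82), the glycerol kinase Gk (-0.78) and the glycerol channel Aqp9 (-0.71). Gpd1 (-0.55) and Gpd2 (-0.49) fell in KO livers as well.

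Mogat1, of the monoacylglycerol route that joins the pathway at diacylglycerol, fell by 4.28 in DN livers (SE 0.54, adjusted p = 7.3e-09; -2.29 and adjusted p = 0.0036 with 48 livers), from a median of 8.42 CPM to 0.542 CPM with no overlap among the 46 livers, and changed by -0.54 (adjusted p = 0.44) in KO livers. Mogat2 had 0 to 0.538 CPM in KO wild-type and 0.370 to 3.78 CPM in KO homozygous livers, the group in which it was highest; it passed the filter on low counts with 46 livers and not with 48, so its call in KO livers is given no weight. Neither subunit of the phosphatase that activates lipins, Ctdnep1 (-0.03) or Cnep1r1 (-0.05), passed in DN livers. Of 10 genes that draw phosphatidic acid or diacylglycerol into other lipids, the cholinephosphotransferase Chpt1 (-1.56), Selenoi (-0.76) and the diacylglycerol kinase Dgka (-0.63) fell in DN livers, Dgkd rose by 0.40 and Dgkz by 0.32, and none passed in KO livers. Of all genes, 59.0% passed in the DN comparison, 29.9% as lower, and 19.3% passed in the KO comparison. With all 48 livers the DN counts were 10 lower and 3 higher of 24 genes tested, with Agpat1 no longer passing and Mogat2 under the filter on low counts. The 4 genes of fatty acid synthesis measured beside them fell with both alleles in the 46 livers: Srebf1 (-3.18 in DN and -0.71 in KO livers), Mlxipl, which encodes the carbohydrate response factor ChREBP (-1.33 and -0.41), Fasn (-4.95 and -1.58) and Scd1 (-5.68 and -1.42). With all 48 livers all 4 passed in DN livers, with a median of -2.33 in place of -4.07, and none of the 4 passed in KO livers.

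**Figure D5:**
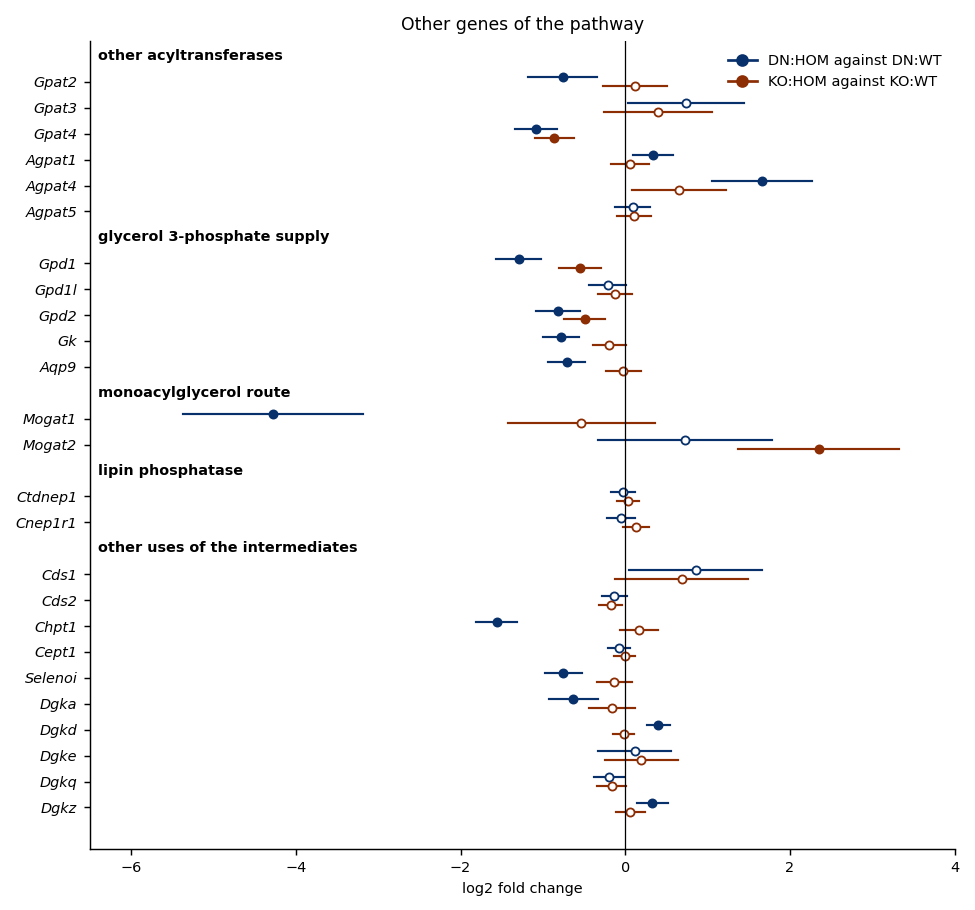
Log2 fold change (horizontal axis) of 25 further genes of the pathway, by role, in DN:HOM against DN:WT and KO:HOM against KO:WT livers; circles are fitted values from 46 livers, filled where the adjusted p is under 0.05, and bars are 95% confidence intervals. Gpat4, Gpd1 and Gpd2 are filled for both alleles, and Mogat1 stands farthest to the left.

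Cell type markers moved with genotype in both studies. Of all 15711 genes tested with the livers used, 59.0% passed in DN homozygous against wild-type livers, 29.9% as lower, and 4571 genes as higher. In KO homozygous against wild-type livers 19.3% passed, 7.82% as lower, and 1809 genes as higher. In DN heterozygous against wild-type livers 2.05% passed, and 312 genes were higher. Where 59.0% of all genes pass, a count of markers called does not by itself single out a cell type. The summed level of 6 hepatocyte genes ran from 54652 to 72941 CPM in DN wild-type and from 29033 to 36475 CPM in DN homozygous livers, and 5 of the 6 were lower. Summed levels of 8 macrophage genes ran from 147 to 271 CPM and from 895 to 1491 CPM in the same groups, with 6 of the 8 higher and 2 lower, of 7 stellate cell genes from 106 to 150 and from 471 to 638 CPM, of 4 cholangiocyte genes from 6.53 to 10.2 and from 46.9 to 62.6 CPM, and of 4 neutrophil genes from 1.04 to 2.93 and from 20.9 to 65.3 CPM. T cell genes (4) summed to 1.07 to 1.84 and 2.55 to 3.65 CPM, B cell genes (4) to 2.85 to 6.87 and 2.32 to 4.27 CPM, and endothelial genes (5) to 103 to 143 and 64.8 to 120.2 CPM in the same order. In KO livers the hepatocyte sum ran from 62828 to 86534 CPM in wild-type and from 42652 to 64672 CPM in homozygous animals, and the macrophage sum from 86.8 to 279 and from 259 to 1027 CPM, with 5 of the 6 hepatocyte genes lower and 5 of the 8 macrophage genes higher and 1 lower. The T cell sum there ran from 0.694 to 3.02 and from 3.02 to 11.7 CPM with all 4 genes higher, and the stellate sum from 95.3 to 226 and from 128 to 263 CPM with 3 of 7 higher. In the same comparison 1 neutrophil gene (S100a8) was higher, 1 endothelial gene was higher and 1 lower, and no cholangiocyte or B cell gene passed. In DN heterozygous livers, where the T cell sum ran from 1.48 to 15.9 CPM, all 4 T cell genes were higher than in wild type. With all 48 livers 1 of these 4 passed, and in KO homozygous livers 2 hepatocyte genes were lower, 4 macrophage, 4 T cell and 1 stellate gene higher and 0 neutrophil genes passed. In DN homozygous livers the counts with all 48 were 5 hepatocyte genes lower, 5 macrophage genes higher and 2 lower, and 5 stellate genes and 1 T cell gene higher. These are whole livers, in which fewer hepatocytes and less of an RNA per hepatocyte cannot be told apart, and the part of cell composition in the decreases of Gpam, Agpat2, Agpat3, Lpin2 and Dgat2 in DN livers and of Gpam and Lpin1 in KO livers was not tested. Of the adipocyte markers, Adipoq, Lep, Plin1 and Retn were at 2.62 CPM or less in every liver, and Adrb3 was counted at 4.23 to 23.5 CPM.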

How the data were processed

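RNA was measured in 48 mouse livers. The authors aligned reads of stranded libraries to GRCm39 with STAR 2.5.0a, per the labels and the study's methods, and deposited raw gene counts for each liver; the reverse-strand counts of 55416 genes were used here, and 24.0% to 35.0% of reads named no gene and stayed out of library sizes and tests. DN:WT animal 10 and DN:HOM animal 12 were left out of the results given first, since leaving out this pair recovers the group values of 5 genes in the study's source data and both profiles lie nearer to the other genotype. Genes were kept by filterByExpr (15711), scaled by TMM and fitted over 6 groups with edgeR 4.0.16 (glmQLFTest, R 4.3.3), with Benjamini-Hochberg adjustment over all genes tested and a threshold of 0.05. SE and 95% intervals come from the same fit, and each CPM is TMM-scaled. Lengths for CPM per kb are unions of annotated exons. The test was tried first on simulated counts with known fold changes. Ratios were tested by exact two-sided permutation and correlations by 100000 permutations within groups (scipy 1.17.1), with log2 CPM at a prior count of 2. Groups and animals came from the labels, and each liver is a separate animal. Named genes are the 8 enzymes, Nr1h3, the pathway and reference lists by their counts, listed fasting and clock genes where Lpin1 is described, the 3 genes most like each enzyme (mean log2 CPM above 1; 1 of them is not reported here) and genes that overlap one; Ctdnep1, Cnep1r1, Ppara, Pdk4, Fgf21, G6pc1, Bmal1, Dbp and Nr1d1 were added after their values were seen where they did not pass. The enzymes and lists were chosen with earlier results of these data known. Alternatives were the livers used, scaling, the filter, strand, DESeq2 1.42.0, the groups fitted together, depth, prior count, gene length and the threshold.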

Additional observations from a re-analysis of the deposited data

Results flagged for a closer look

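Over 64 sets of 7 or 8 livers, 1 liver stood far from the others in 10 sets, judged by its gap to the nearest liver as a share of the whole range (Dixon's 95% critical value, 0.568 for 7 livers and 0.526 for 8). Chance alone gives about 1 in 20. The 10 cannot be set against that share, since 7 of them put back DN:WT animal 10 or DN:HOM animal 12, already known to stand apart. Those among the 46 livers are too few to be told apart from chance. Among the 46 livers, DN:WT animal 17 had the highest Gpam, 1045.5 CPM beside 373 to 605 CPM in the others (gap 0.6549 of the range). DN:HET animal 14 had the highest Lpin1 of its group, 119 CPM beside 31.2 to 66.3 CPM (0.6018), and KO:HOM animal 11 had 451 CPM of Lpin1 beside 38.4 to 171 CPM (0.6789).

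The other 7 sets hold the libraries that go against their labels, when all 48 livers are taken. DN:HOM animal 12 stood high in Gpam (0.9376), Agpat2 (0.8559), Agpat3 (0.8444) and Dgat2 (0.5857). DN:WT animal 10 stood low in Agpat2 (0.5655), Agpat3 (0.6688) and Lpin2 (0.5778).

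The homozygous effect differed between the alleles by a test of the difference itself (DN minus KO, log2, quasi-likelihood test in edgeR, p adjusted by Benjamini-Hochberg) for Gpam (-1.60), Agpat2 (-1.27), Agpat3 (-0.62) and Dgat2 (-0.96), with adjusted p from 3.2e-08 to 1.2e-04. With all 48 livers the difference passed for Agpat2 (-0.95) and Dgat2 (-0.71) and not for Gpam (-0.92, adjusted p = 0.17) or Agpat3 (-0.44, adjusted p = 0.071).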

How the results depend on the processing

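Of the values for single genes under the alternatives, 861 kept direction and call, 36 lost a call, 7 gained one and 16 changed sign. Of the counts, ratios, shares and correlations, 150 stayed within 1.5 times the count given first, or kept direction and call. A further 15 moved beyond that and 1 changed sign. Among the counts that stayed within 1.5 times, the members called in DN:HOM against DN:HET were 4 in place of 5, by the loss of Lpin1, with all 48 livers, upper-quartile scaling, no low-count filter, unstranded counts (also with DESeq2), without the livers under 10000000 reads, without DN:HET animal 14 and at 0.01, and 6 with library size alone, which lost Lpin1 and added Dgat1 and Lpin3 as higher. The number of the 8 genes called in KO:HOM against KO:WT moved from 2 to 1 with all 48 livers, with each study fitted alone (also with all 48) and at an adjusted p under 0.01, and to 0 with the compared groups alone. In KO:HOM against KO:HET it moved from 2 to 1 with all 48 livers, library size alone, no low-count filter, the compared groups alone or without the livers under 10000000 reads, and to 0 with each study fitted alone (also with all 48) or at 0.01. With all 48 livers the difference between the alleles was called for 2 genes in place of 4 and the wild-type groups differed in 3 in place of 5. The cause was not tested.

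Signs changed under library size alone for Dgat1 in DN:HOM against DN:WT (0.26), DN:HOM against DN:HET (0.32), KO:HOM against KO:HET (0.0932) and the difference of alleles (0.26), for Agpat2 (0.0651) and Lpin3 (0.0525) in KO:HOM against KO:WT, Dgat2 in KO:HOM against KO:HET (0.0008) and the Lpin2 difference (0.16); the median of all genes moves with this scaling, and the Dgat1 changes of 0.26, 0.32 and 0.26 passed as higher. Upper-quartile scaling turned Dgat1 in DN:HOM against DN:HET (0.0204), in KO:HOM against KO:HET (0.0096) and in the difference (0.0035). All 48 livers turned Lpin3 in DN:HOM against DN:HET (-0.0075), Agpat3 between wild types (0.0757) and the Dgat2 to Dgat1 ratio in DN:HET against DN:WT (0.0309). Lpin3 turned in DN:HOM against DN:HET without DN:WT animal 17 (-0.0062), Lpin1 in DN:HET against DN:WT without DN:HET animal 14 (-0.12) and Lpin1 in KO:HET against KO:WT without the livers of low depth (-0.0243). Leaving out animals 17, 14 or 11, fitting each study alone with 48 livers and DESeq2 on unstranded counts were chosen after seeing the data. Without KO:HOM animal 11, Lpin2 passed in KO:HOM against KO:WT (-0.57, adjusted p = 0.036) and Lpin1 in DN:HOM against DN:WT (-1.07, adjusted p = 0.048).

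No paired analysis was possible because groups compared within a study share no animal number, and a number that recurs in the other study is another animal. Lpin3 and Dgat1 had the fewest reads, with medians of 107 and 362.5 a liver. Lpin1 spread widely among KO livers, and the part of this spread in its calls was not tested.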
